A study of Mus musculus with 24 samples.

Results

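The olfactomedin-like genes Olfml1, Olfml2a, Olfml2b and Olfml3 were followed in aortas from 24 mice, as 4 of the 41128 genes in the deposited count table. They were taken by gene symbol, and all 4 had counts in all 24 libraries and passed the filter on low counts. Olfml2a was chosen by its measured counts, which were lower with angiotensin II (AngII) than without it in wildtype mice. That difference and any comparison that reuses the wildtype libraries of Olfml2a are therefore given as values, without a test. The other 3 genes were added by name.

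The mice were male and female, 5 months old, wildtype (WT) or knockout (KO) for Ppp3cb, from the line B6,129S6-Ppp3cbtm1Jmk/J. Ppp3cb encodes a catalytic subunit of calcineurin, the calcium-activated phosphatase that sends NFAT transcription factors into the nucleus. Treated mice received AngII, a blood pressure-raising peptide hormone, at 500 ng per kg per min from osmotic minipumps for 4 weeks. Untreated mice of both genotypes and both sexes served as controls, and the labels do not say whether they carried a pump. The 8 groups of genotype, treatment and sex held 3 mice each, and total RNA was depleted of ribosomal RNA and sequenced, with 1 library for each numbered replicate. The labels do not name the cells in which Ppp3cb was lost, and nothing in them ties KO mice to WT littermates.

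Olfactomedin domains are bladed propeller folds found mainly in secreted glycoproteins and at the outer face of some receptors. Olfml2a and Olfml2b (photomedin-1 and photomedin-2) are secreted proteins that bind chondroitin sulfate E and heparin, which are sugar chains of proteoglycans. Olfml3 is secreted too and, like its frog relative ONT1, is known for links to BMP signalling: ONT1 holds chordin, a BMP antagonist, next to the Bmp1/tolloid proteases that cleave it. Olfml1 is a secreted glycoprotein whose role is less well described.

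In the mouse build mm10 with GENCODE M21 models, Olfml1 (ENSMUSG00000051041) lies on chr7:107567446-107591094, plus strand, and Olfml2a (ENSMUSG00000046618) on chr2:38931978-38963753, plus strand. Olfml2b (ENSMUSG00000038463) lies on chr1:170644532-170682789, plus strand, and Olfml3 (ENSMUSG00000027848) on chr3:103722222-103738001, minus strand. Olfml2a and Olfml2b have 8 exons each, and Olfml1 and the principal transcript of Olfml3 have 3. An intron of Olfml2a holds the processed pseudogene Gm13473, which shares 0 exon bases with it and had 75 counts against 4521 for Olfml2a over the 24 libraries.

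The upstream sequences of 2 genes are printed because calcineurin acts through NFAT, whose binding core is GGAAA: Olfml2a, the family member with the lowest level after AngII relative to control in WT mice, and Olfml3, the member that differed between the sexes. Both come from the RefSeq promoter table of GRCm38.p6, in which all 4 genes were found by symbol. They run 5′ to 3′ on the strand of the gene, from chr2:38931730-38931977 (plus strand) and chr3:103738002-103738251 (minus strand), and end before the first transcribed base. Capitals mark the match to GGAAA or, on the other strand, TTTCC.
Olfml2a: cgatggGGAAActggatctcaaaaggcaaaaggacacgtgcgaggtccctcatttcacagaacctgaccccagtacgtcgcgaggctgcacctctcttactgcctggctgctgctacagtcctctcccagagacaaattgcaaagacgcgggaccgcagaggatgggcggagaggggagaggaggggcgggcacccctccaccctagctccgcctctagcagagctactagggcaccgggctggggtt
Olfml3: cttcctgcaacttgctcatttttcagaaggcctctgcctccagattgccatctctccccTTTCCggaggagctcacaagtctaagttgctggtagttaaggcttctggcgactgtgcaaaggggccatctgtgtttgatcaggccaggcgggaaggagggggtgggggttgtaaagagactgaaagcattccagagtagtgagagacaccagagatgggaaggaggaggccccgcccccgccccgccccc
Each sequence holds 1 match, as does the 250-base window of Olfml1, and the window of Olfml2b holds 0. A match occurs in 55.6% of the 32851 promoter windows of that length, so most genes carry these letters. The AP-1 letters TGANTCA, searched on both strands, were found in none of the 4 windows and in 6.7% of all windows. The GC box GGGCGG, searched on both strands, was found 0 times in Olfml1, 2 times in Olfml2a, 1 time in Olfml2b and 3 times in Olfml3, and in 32.7% of all windows. No GC box overlapped a GGAAA match in the printed sequences.

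Library totals ran from 1523328 to 6352365 counts (median 3835993). Ppp3cb, the targeted gene, was at 41.9 ± 10.8 CPM (counts scaled to a common library size; SD, n = 12) in WT and 21.3 ± 6.11 in KO mice. In 10 of the 12 KO libraries it lay below every WT library. The 3 KO control female libraries had the lowest totals, 1523328 to 2401264, and the next lowest library had 2510551. Genes of olfactory and vomeronasal receptors held 1001 to 1992 CPM of their protein-coding counts, against 110 to 1073 in the other libraries. These ranges overlapped through KO AngII female 1, at 1073 CPM. Whole chromosomes 9, X, Y and MT are at 0 in every library and were treated as not measured. The sex labels could therefore not be checked with genes of X and Y. The smooth muscle genes Tagln and Cnn1 were lost in the same way. The other 8 of 10 smooth muscle markers had counts in every group, with Myh11 at a mean of 7223 CPM and Acta2 at 4490 CPM. The labelled tissue thus shows its defining muscle genes.

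Per kilobase of exon, the order of mean levels over the 24 libraries was Olfml2b, Olfml2a, Olfml1 and Olfml3. Olfml2b was at 26.4 ± 7.99 CPM per kb (SD, n = 24). This was higher than 95.5% of the 13386 protein-coding genes that passed the filter on low counts and had a length. Olfml2a stood at 9.39 ± 3.59 and Olfml1 at 6.82 ± 2.55 CPM per kb, at the percentiles 83.0 and 75.9, and these neighbours overlapped. Olfml3 was lowest at 3.21 ± 1.72 CPM per kb of the 6161 bases covered by its 4 transcripts, or 3.62 per kb of its principal transcript. On the first length, Olfml3 was near the middle of these 13386 genes (percentile 54.2). Its last place and percentile depend on these lengths, and the annotation behind the counts is not given. Without division by length, Olfml3 was at 19.8 ± 10.6 CPM, above Olfml1 at 11.5 ± 4.30 CPM. In WT mice given AngII the order of the middle pair vanished, with 5.35 ± 0.89 CPM per kb for Olfml2a and 5.35 ± 2.71 for Olfml1 (SD, n = 6).

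Variation between mice differed among the members. Single libraries held 12 to 66 counts of Olfml1, 83 to 329 of Olfml2a, 45 to 530 of Olfml2b and 4 to 257 of Olfml3. The coefficient of variation over all mice was 30.3% for Olfml2b, 37.4% for Olfml1, 38.2% for Olfml2a and 53.4% for Olfml3. The biological coefficient of variation estimated by edgeR within groups was 0.25 for Olfml2b, 0.27 for Olfml2a, 0.41 for Olfml1 and 0.47 for Olfml3. All 4 were below the median of 0.49 over all tested genes, Olfml3 only just.

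**Figure D1:**
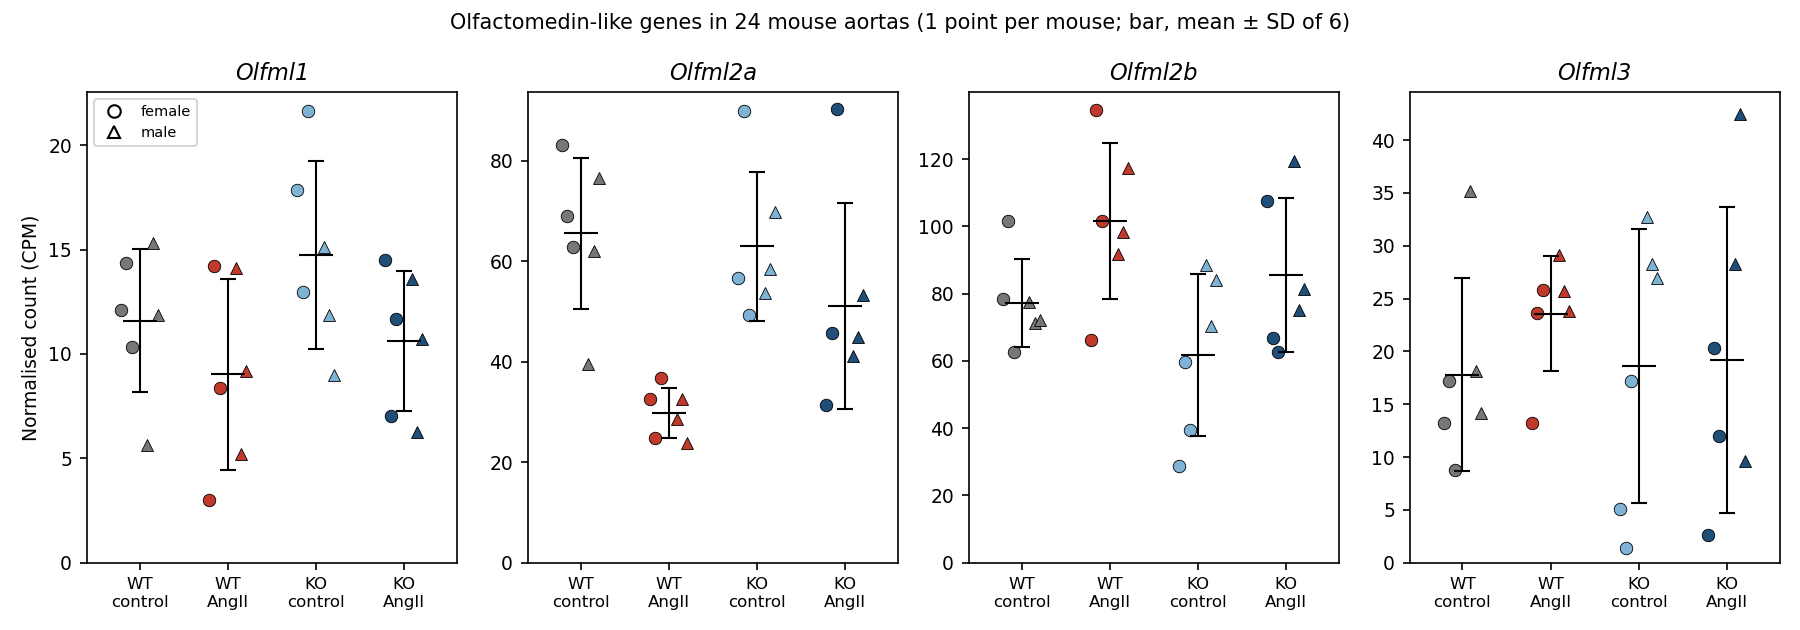
Normalised count (CPM) of each gene on the vertical axis, with 1 point per mouse (circles female, triangles male) and bars for the mean ± SD of 6 mice, by genotype and treatment. The 6 Olfml2a points of WT mice given AngII lie between 23.9 and 36.7 CPM, below every WT control, while the Olfml3 points of females lie low in the KO groups.

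Olfml2a, which encodes photomedin-1, was at 83.2, 68.9 and 62.9 CPM in WT control females and at 39.6, 62.0 and 76.6 CPM in WT control males. In WT mice given AngII it was at 32.5, 24.9 and 36.7 CPM in females and at 28.6, 32.6 and 23.9 CPM in males. All 6 treated libraries lay below all 6 controls, and both sexes took part. Groups that separate downwards in this way made up 0.264% of the 16316 genes tested, and nothing is read from this, since the difference selected the gene. The mean was 65.5 ± 15.1 CPM in controls and 29.9 ± 4.97 CPM with AngII (SD, n = 6), a log2 difference of -1.13 ± 0.23 (SE), with -1.19 ± 0.32 in females and -1.07 ± 0.32 in males. In bulk tissue, fewer cells that make a transcript and less of it per cell cannot be told apart.

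The KO libraries were not used to select Olfml2a, so its response there could be tested. KO control females held 56.7, 90.0 and 49.3 CPM and KO control males 53.7, 58.4 and 69.7 CPM. With AngII, KO females held 31.4, 45.8 and 90.3 CPM and KO males 41.1, 45.0 and 53.3 CPM. The groups overlapped: 4 of 6 treated libraries lay below every control, and 1, a female at 90.3 CPM, lay above every control. The mean was 63.0 ± 14.9 CPM in controls and 51.1 ± 20.5 CPM with AngII, a log2 difference of -0.31 ± 0.22 (SE; adjusted p = 0.786, edgeR quasi-likelihood test). Without that female the difference was -0.55 (adjusted p = 0.49), and without the KO control female at 90.0 CPM, KO AngII female 1 or KO AngII female 2 it was -0.12, -0.15 or -0.22. No setting carried it past the threshold of an adjusted p of 0.05.

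Between genotypes, the log2 difference of Olfml2a (KO minus WT) was -0.05 ± 0.22 in controls and 0.77 ± 0.23 under AngII, where 5 of 6 KO libraries lay above all 6 WT libraries. The response in KO minus the response in WT was 0.82 ± 0.32 in log2 units, 0.96 ± 0.45 in females and 0.69 ± 0.45 in males. These 3 contrasts contain the WT libraries that selected the gene and carry no test here. Without KO AngII female 3 the genotype difference under AngII was 0.48 and the difference of responses 0.58. The female minus male difference of Olfml2a was 0.20 ± 0.16, and its response to AngII in females minus that in males was 0.01 ± 0.32, also without a test.

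Olfml2b, the photomedin-2 gene, had higher mean levels with AngII in both genotypes, by amounts that did not pass the test. In WT controls its lowest, median and highest values were 62.6, 74.8 and 102 CPM, and with AngII they were 66.3, 100.01 and 135 CPM. In KO controls they were 28.7, 65.0 and 88.6 CPM, and with AngII 62.7, 78.4 and 119.6 CPM. Treated libraries lay above every control of their genotype in 3 of 6 WT and 2 of 6 KO mice, and the remaining libraries overlapped. AngII minus control was 0.40 ± 0.20 in WT (adjusted p = 0.78) and 0.53 ± 0.21 in KO (unadjusted p = 0.0155, adjusted p = 0.533). The KO value was 0.88 ± 0.30 in females and 0.18 ± 0.29 in males, and it drew on low levels in the 3 KO control females, at 28.7, 59.7 and 39.4 CPM. KO minus WT in controls was -0.39 ± 0.21 (adjusted p = 0.558), with -0.91 ± 0.30 in females and 0.14 ± 0.29 in males. Under AngII it was -0.25 ± 0.20 (adjusted p = 0.924).

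Olfml1 was the least sampled member, with 959 counts in all. Its mean was 11.6 ± 3.44 CPM in WT controls, 9.02 ± 4.57 with AngII in WT, 14.7 ± 4.51 in KO controls and 10.6 ± 3.37 with AngII in KO (SD, n = 6). The lowest library was a WT AngII female at 3.0 CPM and the highest a KO control female at 21.6 CPM, and all 4 groups overlapped. AngII minus control was -0.37 ± 0.37 in WT (adjusted p = 0.988) and -0.45 ± 0.37 in KO (adjusted p = 0.822). KO minus WT was 0.31 ± 0.37 in controls (adjusted p = 0.844) and 0.23 ± 0.37 under AngII (adjusted p = 0.989). None of these differences stood clear of the spread between mice.

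Olfml3, the BMP-linked member, showed no called response to AngII. Its mean was 17.8 ± 9.14 CPM in WT controls and 23.6 ± 5.44 CPM with AngII, a log2 difference of 0.45 ± 0.40 (adjusted p = 0.973). In KO mice it was 18.6 ± 13.0 and 19.2 ± 14.5 CPM, a difference of 0.23 ± 0.42 (adjusted p = 0.951). KO minus WT was -0.19 ± 0.42 in controls (adjusted p = 0.936) and -0.42 ± 0.40 under AngII (adjusted p = 0.957). The wide spread within these groups came with a difference between the sexes.

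Levels of Olfml3 were lower in females. WT control females held 13.2, 17.2 and 8.81 CPM and WT control males 35.2, 18.2 and 14.2 CPM. WT females given AngII held 13.3, 23.6 and 25.8 CPM and WT males given AngII 29.2, 25.8 and 23.9 CPM. In WT mice the sexes overlapped, with 5 of 6 females below the male median and 3 of 6 below every male. KO control females held 5.10, 1.44 and 17.2 CPM and KO control males 32.7, 28.3 and 27.0 CPM. KO females given AngII held 2.64, 20.3 and 11.9 CPM and KO males given AngII 28.2, 42.5 and 9.61 CPM. In KO mice all 6 females lay below the male median and 3 of 6 below every male.

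Over all mice Olfml3 was at 13.4 ± 7.90 CPM in females and 26.2 ± 9.03 CPM in males (SD, n = 12), and all 12 females lay below the male median. The log2 difference, female minus male, was -1.07 ± 0.29 (SE; adjusted p = 0.0272, edgeR), with a negative sign in all 4 combinations of genotype and treatment. Olfml3 was called in this comparison, as 1 of the 3 members tested, where 5.27% of the 16316 genes were called and 3.44% were called lower in females. The value was -0.55 ± 0.40 in WT (adjusted p = 0.999) and -1.58 ± 0.43 in KO mice (adjusted p = 0.026). The difference between these values, -1.03 ± 0.58, did not pass its own test (adjusted p = 0.795).

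This call rested on few libraries. The KO control females, with totals of 1523328 to 2401264 counts, held only 8, 4 and 31 counts of Olfml3. Without these 3 mice the female minus male difference was -0.78 ± 0.29 (adjusted p = 0.201), and within WT mice alone -0.56 ± 0.26 (adjusted p = 0.556), so the sign held and the call did not. The call was also lost without KO AngII male 2 (-0.94, adjusted p = 0.0595), WT control female 3 (-1.01, adjusted p = 0.0531) or WT control male 1 (-0.95, adjusted p = 0.0573). Smooth muscle markers moved with the same contrast: 7 of 8 measured were lower in females, 3 of them called (Acta2, Des and Smtn), with a median of -0.41. Their summed level was 7063 to 11078 CPM in KO control females and 16808 to 20673 CPM in KO control males, which did not overlap. The sexes overlapped in KO mice given AngII (11002 to 16556 CPM in females, 15913 to 21494 CPM in males), in WT mice given AngII (12495 to 18767 and 18576 to 20289 CPM) and in WT controls (15072 to 16174 and 13535 to 21316 CPM). The part of the depth and of the smooth muscle content in the Olfml3 difference was not tested.

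The other members tested gave no call between the sexes. Female minus male was -0.25 ± 0.15 for Olfml2b (adjusted p = 0.339) and 0.17 ± 0.26 for Olfml1 (adjusted p = 0.784). For Olfml2b the value was -0.56 ± 0.21 in KO mice (adjusted p = 0.10), where 5 of 6 females lay below every male, and 0.06 ± 0.20 in WT mice (adjusted p = 1), and the difference of these was -0.62 ± 0.29 (adjusted p = 0.74). The response to AngII in females minus that in males was -0.35 ± 0.52 for Olfml1, 0.27 ± 0.29 for Olfml2b and 0.58 ± 0.58 for Olfml3 (adjusted p = 1 for each).

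**Figure D2:**
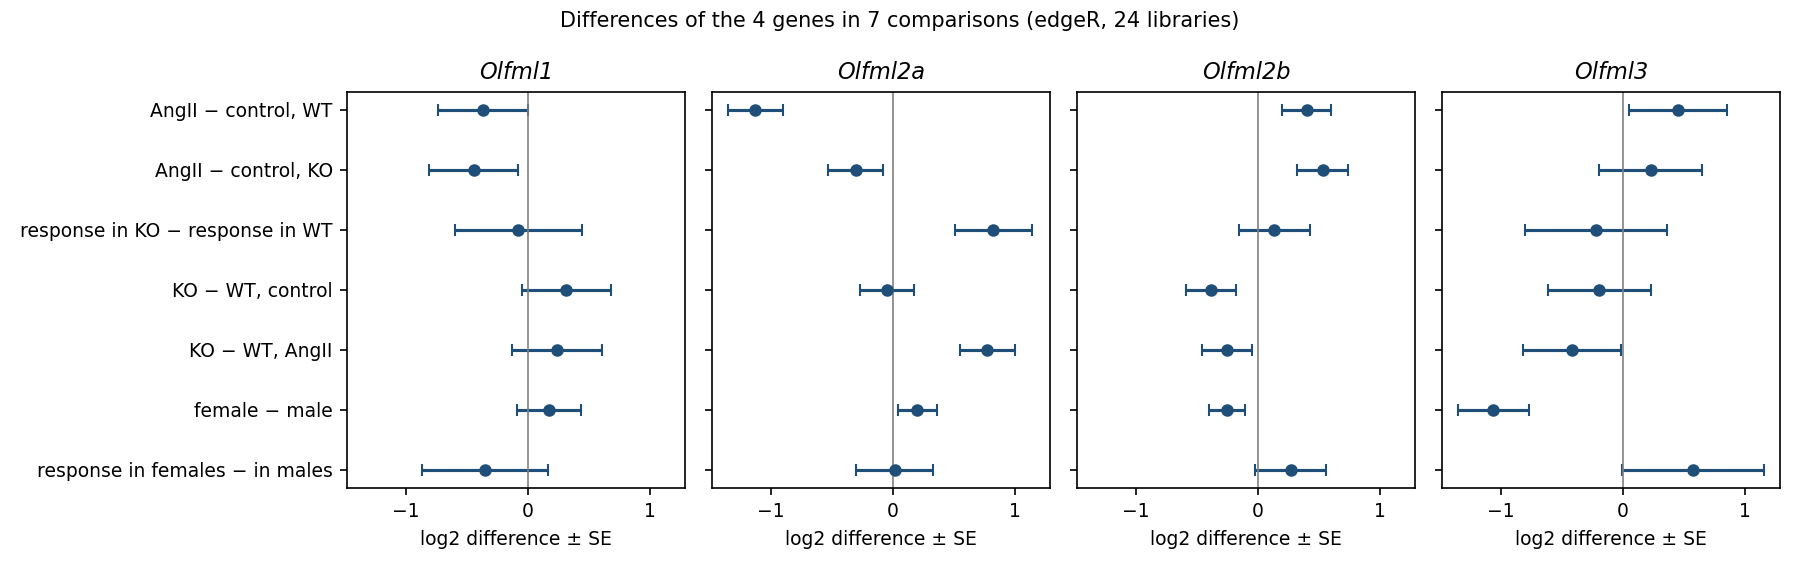
Log2 difference ± SE of each gene (horizontal axis) in 7 comparisons (vertical axis), from the edgeR fit to 24 libraries. Olfml2a with AngII in WT (-1.13 ± 0.23) and Olfml3 between the sexes (-1.07 ± 0.29) lie farthest below 0, and the Olfml2b values with AngII lie above 0 in both genotypes.

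Counted over the family, AngII in WT mice gave 0 calls among the 3 members that could be tested, with 0 at an unadjusted p under 0.05, where 0.208% of all genes were called. AngII in KO mice gave 0 calls among 4, with 1 (Olfml2b) at an unadjusted p under 0.05, where 0.0% of all genes were called and 1258 had an unadjusted p under 0.05. KO against WT gave 0 calls among the 3 testable members in control mice, where 0.221% of all genes were called, and under AngII, where 0.355% were. The difference of AngII responses between genotypes also gave 0 calls among 3. The difference of AngII responses between the sexes gave 0 among 3 as well, where 0.0% of all genes were called in each. DESeq2 and limma-voom called none of these members in these comparisons either. Among the members tested, only Olfml3 was called by edgeR, in the comparison of females with males. The sexes overlapped there, and the call was lost without the KO control females or in WT mice alone.

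**Figure D3:**
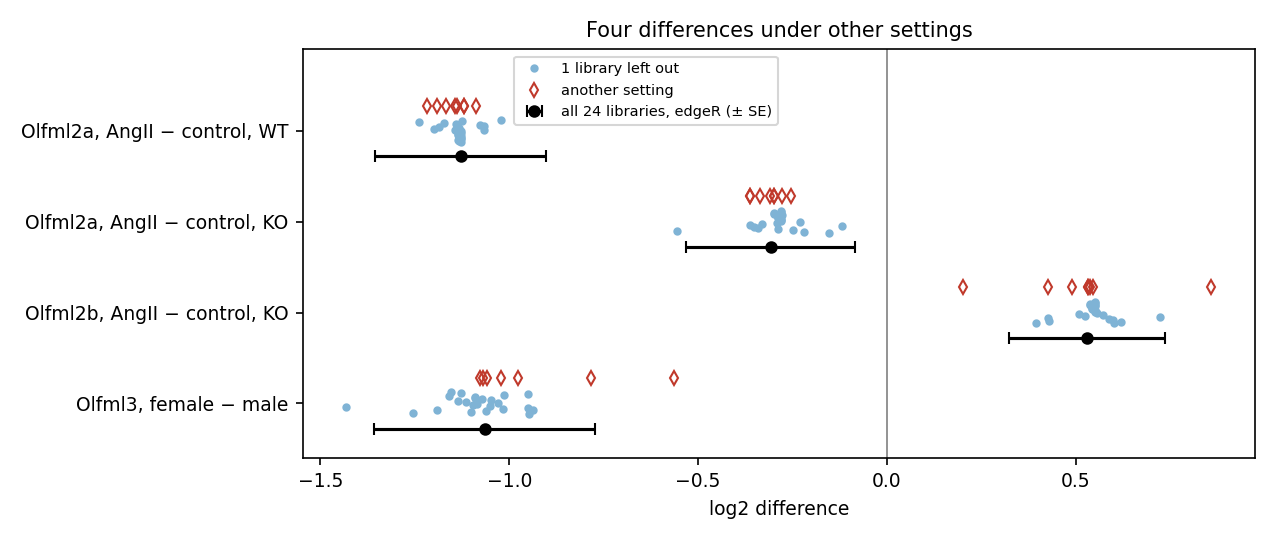
Log2 difference (horizontal axis) of 4 results: black points with all 24 libraries ± SE, blue points with 1 library left out, red diamonds under another tool, filter, scaling, block or subset of mice. Olfml2a with AngII in KO runs from -0.55 to -0.12 when 1 library is left out, and Olfml3 between the sexes shrinks to -0.78 and -0.56 without the KO control females or in WT mice alone.

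The genes most like each member over the 24 libraries were named by Pearson's r of log2 CPM among the 7423 genes whose mean log2 CPM reached 3. These are descriptions, since the libraries share groups and depth. Each gene was picked for likeness over all these libraries, including the WT libraries that selected Olfml2a. A pattern that it shares with its member therefore follows from that choice. Olfml2a ran closest to Map3k1, a stress kinase (r = 0.79), Ptprd, a receptor phosphatase (r = 0.79), and Gucy1a3, a subunit of the nitric oxide receptor guanylate cyclase (r = 0.78). AngII minus control of Gucy1a3 was -0.78 ± 0.22 in WT and 0.16 ± 0.22 in KO mice. Map3k1 had -0.67 ± 0.19 and 0.06 ± 0.19, and Ptprd -0.58 ± 0.17 and 0.03 ± 0.17. All 3 had their lowest group mean in WT mice given AngII, as Olfml2a did, and KO AngII female 3 was among their highest libraries.

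Olfml2b ran with the integrin Itgb5 (r = 0.89), the basement membrane laminin Lama5 (r = 0.89) and the kinase-domain protein Bcr (r = 0.88), and 114 genes had an r over 0.8 with it. KO control females 1 and 3 were the lowest pair of libraries for all 4 of these genes. Olfml3 ran with the endoplasmic reticulum protein Erp29 (r = 0.83), the transcriptional repressor Nacc2 (r = 0.80) and the autophagy protein Gabarap (r = 0.80). Female minus male was -0.97 ± 0.16 for Gabarap, -0.27 ± 0.28 for Erp29 and -0.28 ± 0.11 for Nacc2. These values carry no test, since the genes were picked for likeness to Olfml3. Olfml1 ran with the Elongator subunit Elp4 (r = 0.76), the metalloreductase Steap2 (r = 0.76) and the sulfate transporter Slc26a2 (r = 0.68). By the same measure, r between pairs of members ran from -0.48 (Olfml2a and Olfml2b) to 0.37 (Olfml2b and Olfml3).

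**Figure D4:**
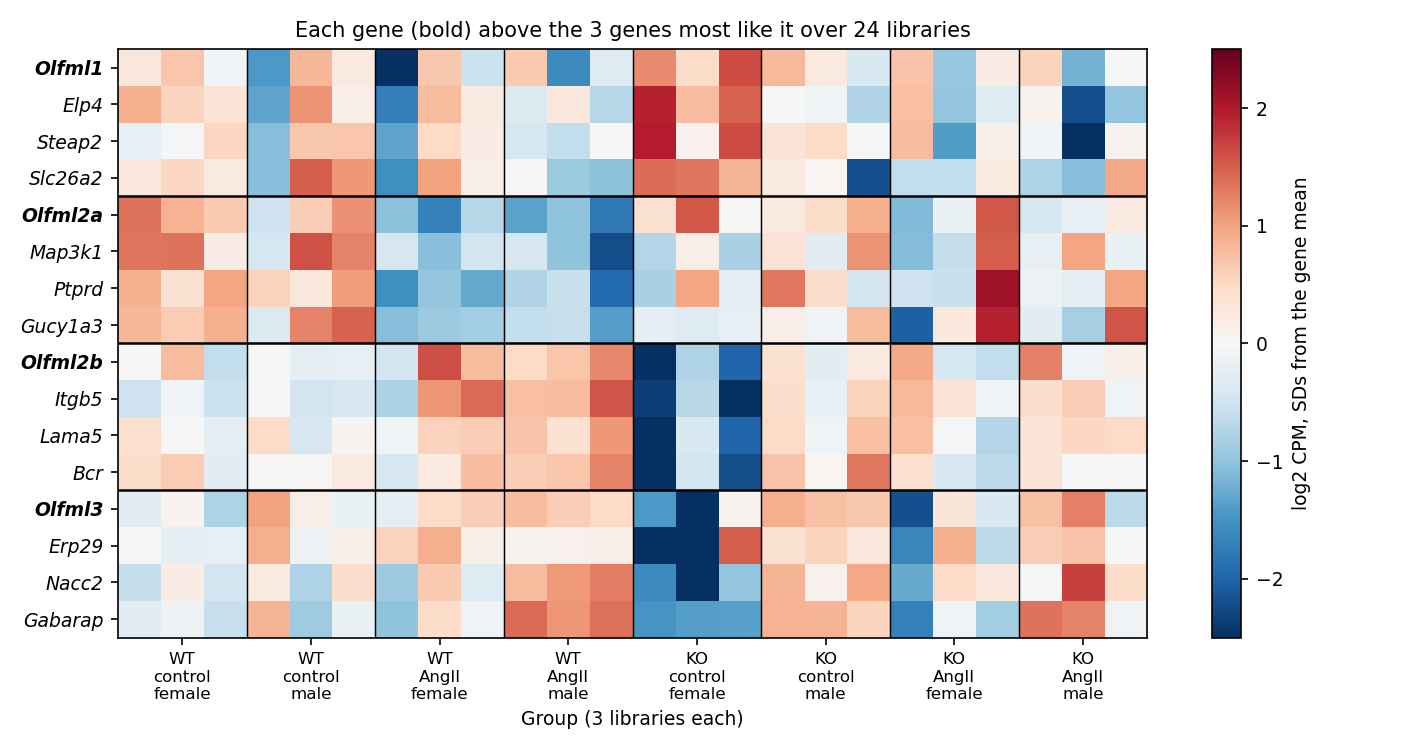
Log2 CPM of each member (bold) and its 3 most alike genes in each of the 24 libraries (columns, in groups of 3), as SDs from the mean of the gene, from blue (low) to red (high). The block of Olfml2a is blue across the WT AngII libraries, and the blocks of Olfml2b and Olfml3 hold their darkest blue in KO control females.

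Other proteins with an olfactomedin domain were followed as a list of 9 genes, of which 7 had counts and 5 passed the filter. They were Olfm1, a neural secreted protein, Myoc, the glaucoma-linked myocilin, and the latrophilin receptor genes named Lphn1, Lphn2 and Lphn3 in the table. None was called by edgeR in any of the 7 comparisons. With AngII 2 of 5 were higher in WT (median -0.14) and 3 of 5 in KO (median 0.24), where the medians over all genes were -0.01 and 0.01. Lphn2, the most counted, had -0.14 ± 0.17 and 0.24 ± 0.17, and Olfm1 had 0.38 ± 0.27 and -0.32 ± 0.27. Myoc, with 174 counts in all, reached an unadjusted p under 0.05 in AngII in KO (2.90 ± 1.17, adjusted p = 0.561), KO against WT in controls (-4.19 ± 1.16, adjusted p = 0.14) and the difference of responses (3.92 ± 1.44, adjusted p = 1). Myoc and Lphn1 did so between the sexes (-1.88 ± 0.72 and -0.50 ± 0.19, adjusted p = 0.122 and 0.12). DESeq2 called Myoc lower in KO controls, and limma-voom called Lphn1 lower in females.

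Enzymes that build and modify chondroitin and heparan sulfate were followed because the photomedins bind chondroitin sulfate E and heparin. They made a list of 36 genes with 31 past the filter. With AngII in WT mice 20 of 31 were higher, with a median of 0.24, where 48.8% of all genes were higher with a median of -0.01. Of the 31, 1 was called, where 0.208% of all genes were. This was Sulf1, the extracellular enzyme that trims sulfate from heparan sulfate, which rose by 0.95 ± 0.20 (adjusted p = 0.0265) and had a mean of 456 CPM over all mice. It stayed called in 14 of 24 fits that left out 1 library, with values of 0.85 to 1.08 over the 24, and the 10 losses were of WT libraries: all WT controls, and WT AngII females 2 and 3 and males 2 and 3. The chondroitin polymerising factor Chpf had 0.85 ± 0.25 (adjusted p = 0.246), and limma-voom called it and the sulfotransferase Chst3 as well. In KO mice 25 of 31 were higher, with a median of 0.28 (51.4% and 0.01 over all genes), 0 were called and 5 had an unadjusted p under 0.05, with Sulf1 at 0.70 ± 0.20 (adjusted p = 0.297). Chst15, named for its product chondroitin sulfate E and not by the rule, had -0.26 ± 0.37 in WT and -0.63 ± 0.38 in KO mice (adjusted p = 1 and 0.724).

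Genotype left this list without edgeR calls. KO minus WT was higher in 10 of 31 genes in controls (median -0.16, 3 at an unadjusted p under 0.05) and in 9 of 31 under AngII (median -0.17, 1 at that level). The xylose-linked galactosyltransferase B4galt7, with 410 counts in all, had -3.48 ± 0.88 in controls (adjusted p = 0.0912) and was called there by DESeq2. Ext1, a heparan sulfate polymerase, had -0.51 ± 0.18 under AngII (adjusted p = 0.379). The differences of response by genotype and by sex gave 0 calls, with 2 and 3 genes at an unadjusted p under 0.05. Between the sexes 2 of 31 were called, where 5.27% of all genes were, both lower in females: the chondroitin sulfotransferase Chst12 (-0.73 ± 0.16, adjusted p = 0.00549) and B4galt7 (-2.10 ± 0.53, adjusted p = 0.0162). Without the KO control females neither was (-0.37 and -0.30), and in WT mice alone B4galt7 was at 0.07.

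The BMP and chordin pathway, in which Olfml3 is placed, gave 23 tested genes of 30 listed. No gene was called by edgeR with AngII in either genotype, with 4 in WT and 3 in KO mice at an unadjusted p under 0.05. The growth factor Gdf10 was at 0.57 ± 0.17 in WT (adjusted p = 0.289) and 0.76 ± 0.17 in KO mice (adjusted p = 0.165), and limma-voom called it in WT and DESeq2 in KO. The chordin-cleaving protease Bmp1 was at 0.55 ± 0.21 in WT (adjusted p = 0.528) and 0.61 ± 0.21 in KO mice (adjusted p = 0.459). Chrd itself, with 439 counts in all, was at 0.39 ± 0.61 and -0.23 ± 0.60. Neither genotype comparison gave a call, with 1 gene each at an unadjusted p under 0.05, and both difference-of-response comparisons gave 0 calls with 0 at that level.

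Between the sexes, the comparison in which Olfml3 was called, 8 of these 23 genes were called lower in females as well, where 3.44% of all genes were, with a list median of -0.51 against 0.05 over all genes. The lower genes were the BMP-induced inhibitors Id2 (-1.21 ± 0.25, adjusted p = 0.00298) and Id3 (-1.16 ± 0.28, adjusted p = 0.0118), the endothelial receptor Acvrl1 (-0.58 ± 0.13), the inhibitory Smad7 (-0.76 ± 0.18) and the receptor-activated Smad9 (-1.06 ± 0.27). Bmp1 (-0.58 ± 0.15), its helper Pcolce (-0.65 ± 0.17) and Gdf10 (-0.47 ± 0.12) made up the rest. None of the 8 was called without the KO control females, where the list median was -0.39, or within WT mice, where it was -0.31. Smad7 (-0.76 and -0.82) and Smad9 (-1.10 and -1.15) stayed near their values over all mice in these smaller fits. The values of the other genes called lower shrank, by differing amounts. Id3 was at -0.84 without the KO control females and -1.08 in WT mice, and Id2 at -1.05 and -0.96. The median of the 8 smooth muscle markers in the same contrast was -0.41.

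Markers of other cells in the vessel wall moved with AngII beside the Olfml2a difference. Endothelial markers were lower in 9 of 10 genes in WT (median -0.66) and in 9 of 10 in KO mice (median -0.40), and neural and Schwann cell markers in 8 of 8 in each (medians -1.16 and -1.68). Macrophage markers were higher in 11 of 11 in WT (median 0.68) and in 3 of 11 in KO mice (median -0.40), and fibroblast markers in 9 of 11 (median 0.35) and 7 of 11 (median 0.09). Smooth muscle markers were higher in 5 of 8 in WT (median 0.16) and 7 of 8 in KO mice (median 0.21). Adipocyte markers were higher in 1 of 9 in WT (median -0.16) and 7 of 9 in KO mice (median 0.26). None of these marker genes was called by edgeR with AngII. DESeq2 called Cd68 higher in WT and Snap25 lower in KO mice, and limma-voom called Mfap5 and Serpinf1 higher and Emcn and Kdr lower in WT mice. Summed endothelial markers ran from 492 to 2128 CPM in WT controls and from 467 to 1174 CPM in WT mice given AngII, and the groups overlapped. Summed neural and Schwann markers ran from 23.7 to 167 CPM and from 14.7 to 71.3 CPM, which also overlapped. Summed macrophage markers did not overlap in WT mice, at 186 to 256 CPM in controls and 272 to 358 CPM with AngII. In KO mice these sums overlapped, at 196 to 632 CPM in controls and 201 to 414 CPM with AngII. The part of cell content in the Olfml2a values was not tested.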

How the data were processed

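Total RNA from mouse aortas was sequenced in 24 libraries. The labels number 3 replicates per group without stating that each is a separate mouse. This was assumed, and p-values measure the spread between these samples. The authors deposited raw counts per gene in 1 table. Per the submitters' processing notes, the tools were featureCounts 1.4.6, TopHat2 2.0.14 with Bowtie2 2.2.5, and cutadapt 1.8.1, on build mm10. Strand settings, the annotation and the handling of reads matching several genes are not given in the sources used here. Columns were joined to mice through the labels.

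Counts were analysed in R 4.3.3. Low counts were removed with filterByExpr (count 10, total 15), and the rest was scaled by TMM and fitted with edgeR 4.0.16 (quasi-likelihood, 8 group coefficients, 24 libraries). Contrasts average the sexes or conditions they span. Tests were two-sided with Benjamini-Hochberg adjustment over 16316 genes, and called means an adjusted p under 0.05. "Without" a library means a refit without it. The script was tested on simulated data. Levels are TMM-scaled CPM, and log2 CPM used a prior count of 2. Lengths came from GENCODE M21. Counts carry no molecular identifiers, and SE and SD cover the spread between mice. No 2 libraries were copies (chi-square per degree of freedom 6.72 to 103 within groups).

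The genes and lists were chosen with earlier results of these data known. Named genes were the 4 members, the 3 most alike for each, and list genes that were called or, otherwise, up to 3 with the smallest p, with systematic names and pseudogenes left out. Lists are described by counts and medians, with no test of the list. Older symbols (Lphn1 to Lphn3, Emr1) were matched by identifier. Alternatives were DESeq2 1.42.0, limma-voom with quality weights (limma 3.58.1), no filter, protein-coding genes only, each sex alone, only the groups compared, a replicate block and each library left out. For the sex difference, leaving out the KO control females and using WT mice alone were added after seeing the data. Some items are not reported here.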

Additional observations from a re-analysis of the deposited data

Results flagged for a closer look

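Of 16 groups of 6 libraries (4 genes by genotype and treatment), 3 held a library far from the rest by Dixon's criterion, which chance gives in about 1 of 20 groups. For Olfml2a, KO AngII female 3 was at 90.3 CPM, above the other KO AngII libraries. For Olfml3, WT control male 1 was at 35.2 CPM, above the other WT controls, and WT AngII female 1 was at 13.3 CPM, below the other WT AngII libraries. Causes were not tested.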

How the results depend on the processing

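The Olfml2a difference with AngII in WT, which selected the gene, is a description: it was -1.22 in females alone, -1.09 in males alone and from -1.24 to -1.02 with 1 library left out. No alternative run reversed the Olfml3 difference between the sexes, but several ended its call. It was at -0.78 without the KO control females, -0.56 in WT mice alone and -1.43 to -0.94 with 1 library left out. DESeq2 put Olfml2a, KO minus WT under AngII, at 0.81, also a description.

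Apart from B4galt7, called over all mice between the sexes (-2.10), signs turned in values that passed no test. In males alone, Olfml3 was at -0.11 for AngII in KO, 0.0496 for KO minus WT under AngII and 0.36 in controls. There, Olfml2a was at 0.0058 (0.0078 by DESeq2 in both sexes) and Olfml2b at 0.11 for KO minus WT in controls, and the difference of responses was 0.0064 for Olfml1 and -0.25 for Olfml2b. In WT mice alone, female minus male was -0.0082 for Olfml1, 0.046 for Olfml2b and 0.066 for B4galt7. The sex difference in the Olfml2a response was -0.0622 by DESeq2, -0.0218 with protein-coding genes only and -0.0425 with the replicate block. The block changed no call of a member. Same-numbered mice did not deviate together (correlations -0.10 to 0.13 over 84 pairs).

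With 1 library left out, Olfml3 ran from -0.081 to 0.93 for AngII in KO, -0.93 to 0.028 for KO minus WT in controls and -0.52 to 0.50 for the difference of responses. Olfml2a ran from -0.26 to 0.015 for KO minus WT in controls and -0.25 to 0.18 for the sex difference in response. Olfml1 ran from -0.25 to 0.25 for the difference of responses and -0.0045 to 0.26 between the sexes, and Olfml2b from -0.0061 to 0.34 for the former.

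Counts of called genes moved more. DESeq2, no filter and limma-voom called 80, 134 and 329 genes for AngII in WT, against 34, and 146, 182 and 200 for KO against WT under AngII, against 58. DESeq2 called 20 for AngII in KO, 178 for KO against WT in controls, 1451 between the sexes and 5 for the sex difference in response. No filter gave 85, 260, 12 and 7 for AngII in KO, KO against WT in controls and the differences of response by genotype and by sex. Only the groups compared gave 1 for AngII in KO and 21 for KO against WT in controls. Males alone gave 5 for AngII in WT and 0 for both genotype comparisons, and females alone gave 0 for AngII in WT, 0 for KO against WT under AngII and 94 in controls. Between the sexes, 166 were called without the KO control females and 2 in WT mice alone. With 1 library left out, the counts ran from 5 to 86 (AngII in WT), 0 to 113 (AngII in KO), 35 to 72 and 13 to 399 (KO against WT under AngII and in controls), 605 to 1562 (sexes) and 0 to 2 (both differences of response). The highest counts for AngII in KO, KO against WT in controls and the sexes came without KO control female 2. Other causes were not tested. Depth limits Olfml1, at 12 to 66 counts per library, and Olfml3 in KO females, at 4 to 55.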
